A study of Mus musculus with 8 samples.

Results

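The mitochondrial chromosome of the mouse encodes its own ribosomal RNAs, a set of tRNAs and a small set of proteins. The RNAs made from it are described here in RNA from cells sorted out of B16 melanomas and labelled as CD8 T cells. All genes whose symbol starts with mt- were taken: 37 of the 55335 genes in the files, namely 2 rRNA genes, 13 protein-coding genes and 22 tRNA genes. The tumour cells were injected i.v. and the tumours grew for 14 days in either wild-type C57BL/6 mice or CD36 KO mice of C57BL/6 background, and total RNA was sequenced. CD36 is a membrane receptor that takes up fatty acids. The labels call the cells of both groups endogenous tumour-infiltrating CD8 T cells. The knockout belongs to the host mouse. The labels do not give the age of the mice, the number of animals in each group or the sorting gates.

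The titles number the 8 samples as 4 lanes under 1 library number for each genotype. From these titles, which name no animals, they were taken as 4 lanes of 1 library, called here the WT and the CD36_KO library. The lanes held between 2497048 and 2611740 estimated counts each. Lanes of 1 library repeat the sequencing and not the animal or the preparation, so no p-value is given for the genotype. Intervals below are 95% exact intervals that cover counting error only, and without molecular identifiers 2 reads may stem from 1 molecule. Lanes of 1 library are called separate from those of the other when their ranges do not overlap.

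As background, the mitochondrial chromosome is transcribed from both strands as long precursors. The rRNAs and most mRNAs are bordered by tRNAs, and the precursors are released into single RNAs where RNase P and ELAC2 cut out those tRNAs. Most genes lie on the strand annotated as +. The − strand encodes mt-Nd6 and 8 of the 22 tRNAs, 9 genes in all. The proteins are core subunits of complexes I, III and IV and of ATP synthase, and the remaining subunits of these complexes come from nuclear genes. In T cells, mitochondrial respiration is known to rise on activation and to be needed for long-lived responses.

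Some of these genes overlap, and reads from the overlaps cannot be given to 1 gene by sequence alone. The following ends of coding genes show this. In the values below, mt-Atp8 and mt-Atp6 differ widely, as do mt-Nd6 and mt-Nd5, while mt-Nd4l and mt-Nd4 differ little. They are printed 5′ to 3′ from GENCODE M21 transcripts on GRCm38. In mt-Atp8 (chrM:7890-7969, + strand) the 43 capitals are shared with the start of mt-Atp6. In mt-Nd4l (chrM:10114-10173, + strand) the 7 capitals are shared with the start of mt-Nd4. In mt-Nd6 (chrM:13552-13611, − strand) the 14 capitals lie opposite the end of mt-Nd5.
mt-Atp8 end: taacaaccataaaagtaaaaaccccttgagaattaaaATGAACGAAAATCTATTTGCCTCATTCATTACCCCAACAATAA
mt-Nd4l end: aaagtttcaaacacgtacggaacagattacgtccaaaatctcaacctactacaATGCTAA
mt-Nd6 end: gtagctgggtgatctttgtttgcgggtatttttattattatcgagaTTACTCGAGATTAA

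A further ambiguity comes from nuclear pseudogenes, which are copies of mitochondrial DNA inserted into nuclear chromosomes. Their reads cannot be separated from mitochondrial ones where the copy is identical. A copy that is almost identical is shown for mt-Nd3 (chrM:9459-9518, + strand) beside Gm28438 (chr1:24613060-24613119, − strand), with the first 60 bases of each. The capital marks the single base that differs over 345 aligned bases, at position 3 counted from the 5′ end of mt-Nd3.
mt-Nd3 window: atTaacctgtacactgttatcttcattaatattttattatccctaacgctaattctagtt
Gm28438 window: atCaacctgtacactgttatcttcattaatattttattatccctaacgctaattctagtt

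The tRNAs shown next are 4 of the better-counted ones, all on the − strand, with the anticodon in capitals. The counts of mt-Ts1 (chrM:6870-6938) and mt-Te (chrM:14071-14139), the tRNAs for a serine codon set and for glutamate, differed widely between the libraries. Those of mt-Ty (chrM:5260-5326) and mt-Tp (chrM:15356-15422), for tyrosine and proline, did not.
mt-Ts1: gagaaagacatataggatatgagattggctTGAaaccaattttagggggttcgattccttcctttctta
mt-Te: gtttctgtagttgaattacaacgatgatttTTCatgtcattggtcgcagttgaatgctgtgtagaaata
mt-Ty: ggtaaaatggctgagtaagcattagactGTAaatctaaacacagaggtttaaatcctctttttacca
mt-Tp: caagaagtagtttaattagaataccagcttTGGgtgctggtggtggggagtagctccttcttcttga

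Mitochondrially encoded RNA took a larger share of the CD36_KO library. The 37 genes held 1686044 of 10072218 counts, 16.74% (16.72 to 16.76), in the WT library and 2237806 of 10363699 counts, 21.59% (21.57 to 21.62), in the CD36_KO library. The WT lanes lay between 16.66% and 16.78% and the CD36_KO lanes between 21.57% and 21.62%, so the lanes were separate. Most of this was ribosomal: the 2 rRNA genes took 11.91% and 15.5% of all counts, with lanes from 11.86% to 11.95% and from 15.42% to 15.56%. The 13 coding genes took 4.814% and 6.088%, with lanes from 4.701% to 4.895% and from 6.027% to 6.196%. The 22 tRNA genes went the other way, with 0.01373% of counts in the WT library (lanes 0.01311% to 0.01421%) and 0.007681% in CD36_KO (lanes 0.007625% to 0.007812%).

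Within the mitochondrial counts, the division between rRNA and mRNA hardly differed. The rRNA genes held 71.16% of mitochondrial counts in the WT library and 71.77% in CD36_KO. Lane values ran from 70.73% to 71.7% and from 71.31% to 72.06%, which overlap. The tRNA genes held 0.08203% and 0.03557% of mitochondrial counts. With nuclear copies added to the genes they match, rRNA counts in the WT library were 1.976 times the coding counts (lanes 1.969 to 1.986). In CD36_KO they were 1.997 times the coding counts (lanes 1.993 to 2.004). These lanes were separate, though the 2 ratios lay close.

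**Figure D1:**
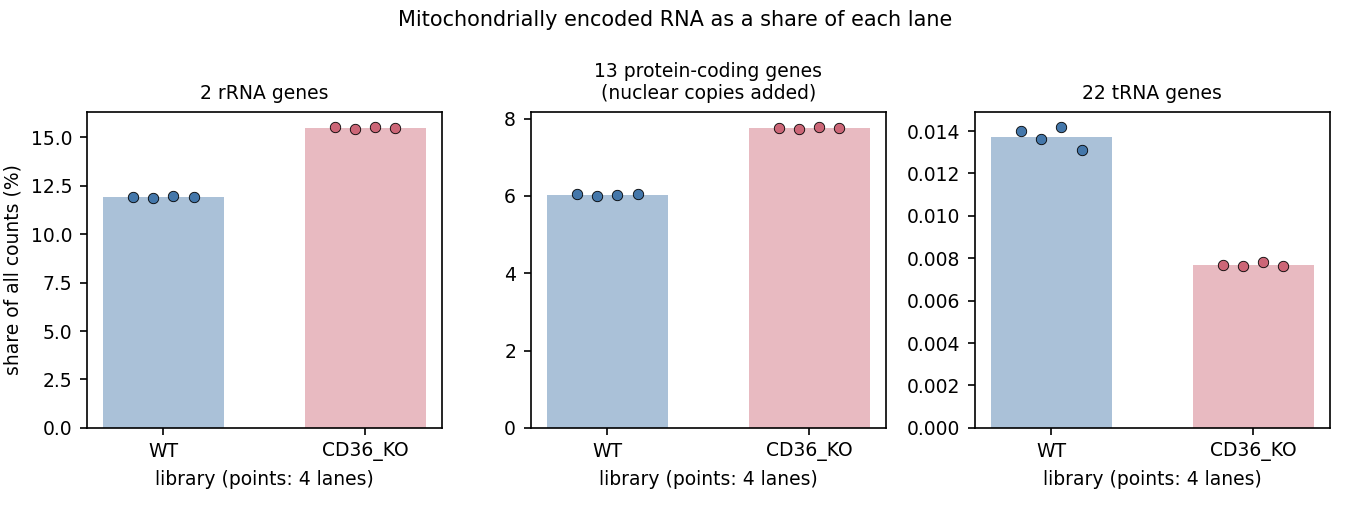
Share of all counts (%) held by the rRNA, protein-coding and tRNA genes of the mitochondrial chromosome. Axes are linear from 0, with a different scale in each panel. The protein-coding panel has the nuclear copies added (6.029% in WT and 7.76% in CD36_KO). Bars are the mean of 4 lanes and points are lanes. The rRNA and coding shares were higher in every CD36_KO lane than in any WT lane, and the tRNA share was lower in every CD36_KO lane.

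These shares depend on what else each library held, and in bulk RNA fewer cells of a type and less RNA per cell cannot be told apart. Markers of several cell types differed with the mitochondrial share. By the 2-fold rule given below, 6.5% of all measured genes were higher in CD36_KO and 10.8% lower. By that rule all 10 CD8 T cell markers were higher. Their summed TPM was 141.0 to 155.1 in WT lanes and 679.0 to 749.4 in CD36_KO lanes. All 10 B16 melanoma markers were lower (1207.0 to 1304.0 against 427.5 to 437.1), as were all 5 measured of 6 fibroblast markers (117.2 to 134.4 against 39.42 to 49.11). Hepatocyte markers, with 9 of 10 higher, summed to 99.3 to 131.2 and 426.3 to 449.7. All 6 B cell markers and all 5 erythroid markers were also higher, with sums of 15.81 to 18.54 against 86.33 to 91.86 and of 335.3 to 375.1 against 1632.0 to 1696.0. Lung epithelium markers had 4 of 6 higher (37.66 to 51.75 against 240.4 to 278.0). Macrophage markers had 1 of 10 lower, near the share over all measured genes, and none higher. Their sums were 1832.0 to 1947.0 and 2130.0 to 2183.0. None of the 6 muscle markers was measured (0.5379 to 1.7 against 3.916 to 7.237), and no marker of any list was at 0 in either library. The CD8 T cell markers were thus present in both libraries beside those of other cells. Their summed TPM lay below that of the macrophage and erythroid markers in both libraries. In the WT library it also lay below that of the melanoma markers. Such sums run over different genes and are not shares of cells, but the mitochondrial values cannot be read as those of CD8 T cells alone. The part of these cell types in the mitochondrial values was not tested. Cd36 itself was counted 287, 299, 307 and 301 times in the WT lanes and 107, 86, 88 and 77 times in the CD36_KO lanes.

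To compare genes between the libraries, counts were scaled by TMM, a factor that sets the trimmed mean of the gene ratios to no change. Values are log2 ratios of scaled counts per 1000000 counts (CPM), CD36_KO over WT. A gene counted as measured when its mean CPM was at least 5, and as higher or lower when it differed by at least 2-fold and its interval excluded no difference. By this rule 21 of the 37 genes were measured. Those 21 were all 15 rRNA and coding genes and 6 tRNA genes, so the 16 remaining tRNA genes did not pass this filter. None of the 21 was higher, beside 6.5% of all 12177 measured genes, and 6 were lower, beside 10.8% of all measured genes. The 6 were mt-Atp8, mt-Nd6 and 4 tRNAs on the − strand, and 15 lay within the 2-fold bounds. With TPM, 2 coding genes as labelled were at least 2-fold higher, mt-Atp6 (1.49) and mt-Nd3 (1.43), and the same 6 genes were lower. Over all 12177 measured genes, 1501 were at least 2-fold higher with TPM and 329 lower. The median of the 13 coding genes was 0.06 (0.04 with nuclear copies) and that of all measured genes was −0.13.

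The signs of small log2 ratios depended on the scaling. With libraries scaled to total counts the median of all measured genes was 0.07, and with the deposited TPM values it was 0.37. The signs of mt-Rnr1, mt-Co2, mt-Nd4l, mt-Nd5, mt-Ty and mt-Tp changed with these scalings, and those of the other 15 measured genes did not. Set against the median of all genes, the coding median was 0.20 above it with TMM, 0.20 with total counts and 0.29 with TPM, and 10 of the 13 coding genes lay above it under each.

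The 2 rRNAs form the small and large subunits of the mitochondrial ribosome, and they did not move together. mt-Rnr1, the 12S rRNA (chrM:70-1024), was counted 74733, 73265, 74879 and 73922 times in the WT lanes and 83097, 81922, 83809 and 82285 times in the CD36_KO lanes. Its log2 ratio was −0.08 (−0.09 to −0.07) with TMM but 0.12 with total counts and 0.51 with TPM. mt-Rnr2, the 16S rRNA (chrM:1094-2675), was counted 227388, 222929, 227912 and 224783 times in the WT lanes and 322560, 314329, 322630 and 315448 times in the CD36_KO lanes. Its log2 ratio was 0.26 (0.26 to 0.26), and it was also above 0 with total counts (0.46) and TPM (0.82). The lanes of the libraries did not overlap for either gene.

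The ratio of the 2 rRNAs needs no scaling between libraries. There were 3.043 counts of mt-Rnr2 per count of mt-Rnr1 in the WT library (lanes 3.041 to 3.044) and 3.851 in CD36_KO (lanes 3.834 to 3.882). In TPM, which corrects for length, the ratios were 1.701 (lanes 1.7 to 1.703) and 2.112 (lanes 2.103 to 2.129). The 16S rRNA thus stood higher relative to the 12S rRNA in every CD36_KO lane. Both rRNAs come from 1 precursor, and nuclear transcripts held 0.0% of the 31-base stretches of mt-Rnr1 and 2.7% of those of mt-Rnr2.

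Before the coding genes are compared, their nuclear copies have to be accounted for. Pseudoalignment assigns reads by short stretches of sequence, here taken as 31 bases, and every such stretch of mt-Co2 also occurred in nuclear transcripts. For mt-Co3 the share was 99.9%, for mt-Atp6 99.5%, for mt-Nd4l 98.9%, for mt-Nd3 98.1%, for mt-Co1 63.9% and for mt-Nd4 62.8%. Of 54 nuclear transcripts with mitochondrial sequence over at least 50% of their length, 22 had counts. Together they held 1.215% of counts in the WT library and 1.672% in CD36_KO.

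Nearly all of these counts sat on 5 neighbouring pseudogenes on the − strand of chromosome 1, between chr1:24611535 and chr1:24615565. Gm28661, identical to mt-Co2 over 681 bases, was given 60284.6 (WT) and 73722.0 (CD36_KO) counts. Gm10925, identical to mt-Atp6 over 678 bases, had 36892.1 and 36464.0 counts. Gm28437, identical to mt-Co3 over 783 bases, had 16010.5 and 52834.1 counts. Gm28439, identical to mt-Nd4 over 876 bases, had 7987.3 and 8976.7 counts. Gm28438, the copy of mt-Nd3 shown above, had 1102.4 and 1149.7 counts. Other copies had few counts or none, close ones included. Gm29216, 99.8% identical to mt-Co1 over 483 bases, had 27.0 and 20.6, and Gm13340, 97.6% identical to mt-Co1, had 29.7 and 24.4. Gm10222, identical to mt-Nd4l over 294 bases, had 0 counts in both libraries, so that mt-Nd4l kept 100% of its joint counts in all 8 lanes.

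For mt-Co2, mt-Atp6 and mt-Co3 the division between the gene and its copy varied from lane to lane. The mt-Co2 entry was given 15.29%, 19.07%, 14.9% and 16.74% of the joint counts in the WT lanes and 13.79%, 17.27%, 11.48% and 17.17% in the CD36_KO lanes. The mt-Atp6 entry was given between 38.15% and 54.65% in WT lanes and between 61.69% and 66.93% in CD36_KO lanes. The mt-Co3 entry was given 66.33% to 84.6% in WT lanes and 46.87% to 60.48% in CD36_KO lanes. Lanes of 1 library spread far beyond counting error over the mitochondrial genes as labelled, with a chi-square of 16 (WT) and 15.8 (CD36_KO) per degree of freedom. Once each copy was added to its gene, the values were 0.855 and 0.792, and that between the first WT lane and the first CD36_KO lane was 309.0. For these 5 genes the joint counts are therefore given beside the labelled ones. They include whatever the nuclear copies themselves made, which identical sequence cannot separate.

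**Figure D2:**
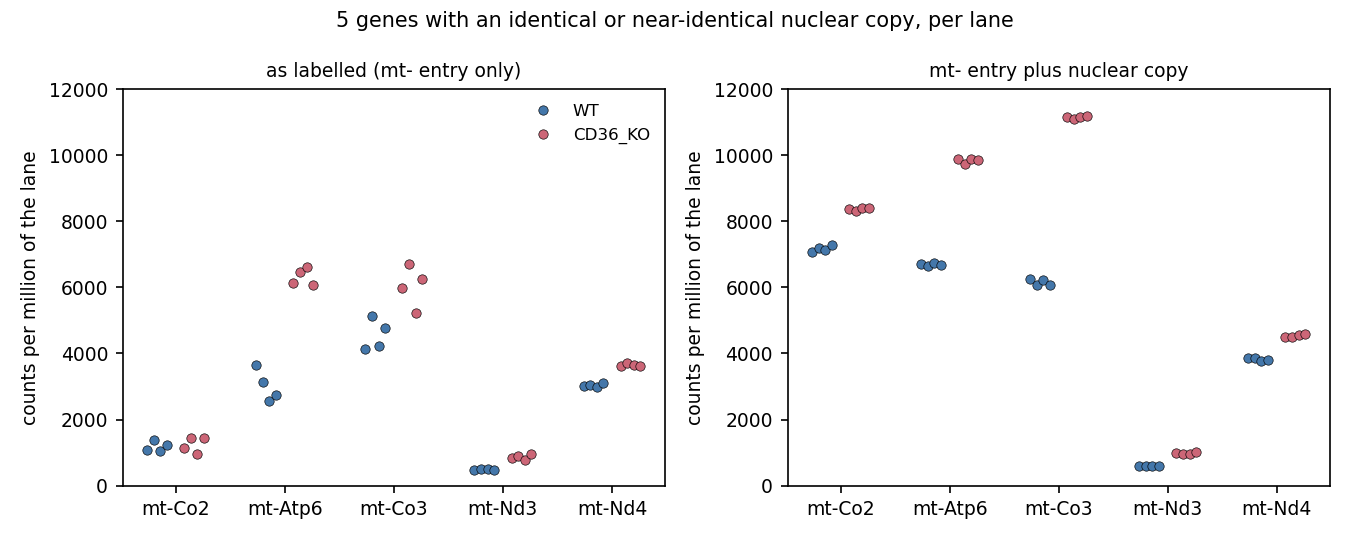
CPM of each lane (unscaled, linear axes from 0) for 5 coding genes with an identical or near-identical nuclear copy, from the mt- entry alone (left) and with the nuclear copy added (right); each point is 1 of 4 lanes. The lanes of mt-Co2 overlap between the libraries on the left and are separate on the right, where lanes of 1 library lie close together.

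Per length, the order of the rRNA and coding genes was the same at its top and changed below. In joint counts per kilobase per 1000000 counts, mt-Rnr2 stood at 56670 ± 184.5 (SD over 4 lanes) in the WT library and 77760 ± 384.7 in CD36_KO. mt-Rnr1 came next with 30860 ± 101.8 and 33450 ± 131.5. mt-Co1 was the highest coding gene in both, with 11550 ± 50.6 and 15480 ± 106.9. The complex IV and ATP synthase genes mt-Co2, mt-Atp6 and mt-Co3 followed, in this order in the WT library (10480, 9823 and 7846) and as mt-Atp6, mt-Co3 and mt-Co2 in CD36_KO (14450, 14220 and 12220). mt-Cytb came seventh in both, with 4382 and 5108, ahead of mt-Nd1 with 4120 and 4933. In the WT library mt-Nd4l (3144) and mt-Atp8 (3138) had overlapping lanes, as did mt-Nd6 (1803) and mt-Nd2 (1769), and mt-Nd3 was lowest (1709). In the CD36_KO library mt-Nd4l (3289) and mt-Nd4 (3283) had overlapping lanes, and the lowest were mt-Atp8 (766) and mt-Nd6 (570). All other neighbours in these orders had separate lanes. These levels use the annotated length, and the place of mt-Atp8 turns with effective length. In TPM, as labelled, mt-Atp8 stood at 5025 in the WT library, above mt-Cytb (2525), and at 2155 in CD36_KO, above mt-Nd4 (1925), mt-Nd2 (1791) and mt-Nd5 (1680), while mt-Nd6 was lowest there (565.6).

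Complex I, which oxidises NADH and passes its electrons to ubiquinone, has 7 mitochondrially encoded subunits. mt-Nd6, the only one of them on the − strand (chrM:13552-14070), was counted 2381, 2313, 2418 and 2316 times in the WT lanes and 777, 759, 790 and 740 times in the CD36_KO lanes. The lanes were separate, and its log2 ratio was −1.86 (−1.92 to −1.80), −1.66 with total counts and −1.19 with TPM. mt-Nd5, which ends opposite mt-Nd6, had a log2 ratio of −0.30 (−0.31 to −0.28), with 0.26 in TPM. There were 5.027 counts of mt-Nd5 per count of mt-Nd6 in the WT library (lanes 4.884 to 5.084) and 14.86 in CD36_KO (lanes 14.53 to 15.22). The pair of opposite genes thus diverged in every lane.

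Among the other complex I genes, the values of mt-Nd4l, mt-Nd4, mt-Nd1 and mt-Nd2 were small with TMM and that of mt-Nd3 was larger. mt-Nd4l was counted 2350, 2360, 2357 and 2338 times in the WT lanes and 2479, 2536, 2601 and 2508 times in the CD36_KO lanes. Its log2 ratio was −0.13 (−0.17 to −0.09) with TMM, 0.07 with total counts and 0.71 with TPM. That of mt-Nd4, which shares an mRNA and 7 bases with mt-Nd4l, was 0.07 (0.05 to 0.09), and 0.04 with its nuclear copy. mt-Nd1 and mt-Nd2 had 0.06 and 0.20. mt-Nd3 had 0.65 (0.60 to 0.70) as labelled and 0.53 (0.48 to 0.58) with its copy, and 1.43 as labelled with TPM. Joint mt-Nd3 counts were 1496, 1479, 1525 and 1492 in the WT lanes and 2611, 2456, 2524 and 2606 in the CD36_KO lanes, with no overlap.

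Complex III has mt-Cytb, the cytochrome b of the ubiquinol to cytochrome c step, as its only mitochondrially encoded subunit. Its log2 ratio was 0.02 (0.01 to 0.04), with 50496 and 60561 counts. Set against this gene, which has almost no counts on nuclear copies, mt-Nd6 had 0.1867 counts per count of mt-Cytb in the WT library (lanes 0.1831 to 0.1925) and 0.05063 in CD36_KO (lanes 0.04953 to 0.05188).

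Complex IV, cytochrome c oxidase, has 3 such subunits. mt-Co1, which carries the site where oxygen is reduced, was counted 45419, 44443, 44971 and 44819 times in the WT lanes and 62224, 61312, 63109 and 61238 times in the CD36_KO lanes. Its log2 ratio was 0.23 (0.22 to 0.23) and positive under every scaling tried, and 99.96% (WT) and 99.97% (CD36_KO) of its joint counts lay on the mt- entry. mt-Co2 had a log2 ratio of −0.12 as labelled and 0.02 (0.01 to 0.04) with its copy. mt-Co3 had 0.21 as labelled and 0.66 (0.65 to 0.67) with its copy. Joint mt-Co3 counts were 15838, 15172, 15751 and 15203 in the WT lanes and 29143, 28539, 29109 and 28716 in the CD36_KO lanes. mt-Co3 was the coding gene with the highest joint log2 ratio, while as labelled it was mt-Atp6.

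ATP synthase has mt-Atp6 and mt-Atp8, parts of the membrane sector through which protons flow, and they lie on 1 mRNA. mt-Atp6 as labelled was counted 9302, 7851, 6504 and 6832 times in the WT lanes and 15988, 16611, 17278 and 15641 times in the CD36_KO lanes, a log2 ratio of 0.87 (0.85 to 0.89), and 1.49 with TPM. The labelled WT counts spread widely from lane to lane. With its copy the counts were 17020, 16570, 17049 and 16742 in the WT lanes and 25837, 24980, 25814 and 25352 in the CD36_KO lanes, a log2 ratio of 0.36 (0.35 to 0.37). The lanes were separate on both counts.

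mt-Atp8 (chrM:7766-7969) was counted 1628, 1589, 1673 and 1559 times in the WT lanes and 417, 392, 395 and 415 times in the CD36_KO lanes. Its log2 ratio of −2.23 (−2.31 to −2.15) was the lowest of the coding genes, and was −2.04 with total counts and −1.22 with TPM. Joint mt-Atp6 counts were 10.45 times those of mt-Atp8 in the WT library (lanes 10.19 to 10.74) and 62.97 times in CD36_KO (lanes 61.09 to 65.35). The mRNA of both genes is shared, so 2 readings of 1 transcript differed in direction. mt-Atp8 is the shortest coding gene, of 204 bases, and its effective length was 63.2 bases in the WT library and 45.2 bases in CD36_KO.

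**Figure D3:**
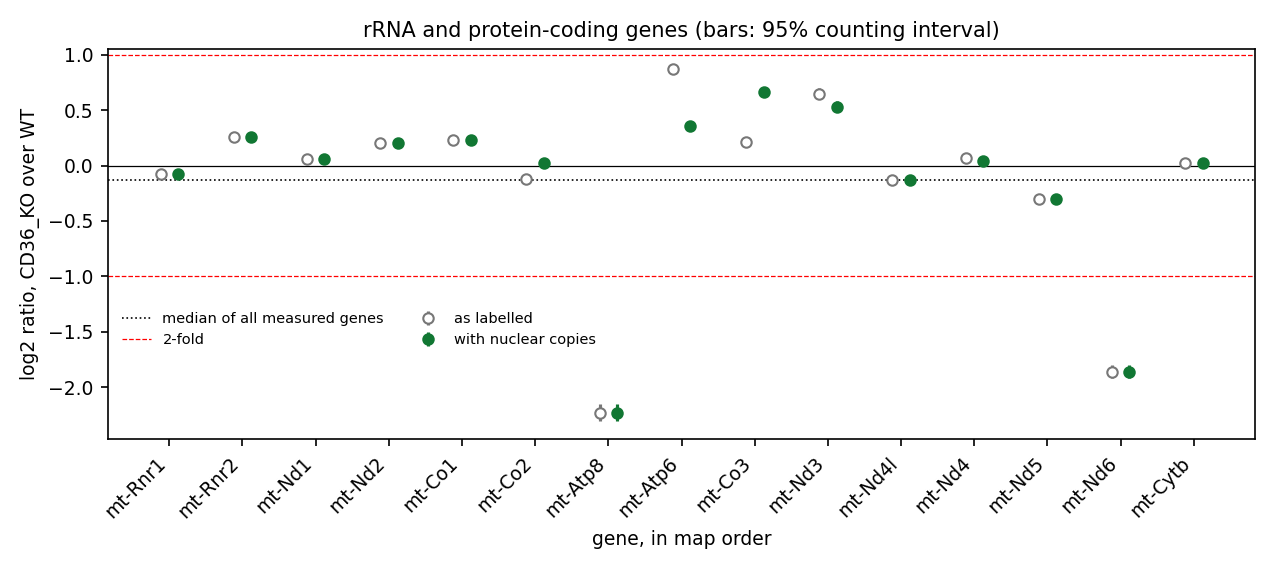
Log2 ratio of TMM-scaled CPM, CD36_KO over WT, of the 2 rRNA and 13 coding genes in map order, from the mt- entry alone (open) and with nuclear copies added (filled); bars are 95% counting intervals, mostly smaller than the points. mt-Atp8 at −2.23 and mt-Nd6 at −1.86 lie below the 2-fold line, and all other genes lie between −0.30 and 0.87.

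The make-up of the coding RNA can be read without scaling between libraries, as a share of the joint counts of the 13 genes. mt-Co1 took the most, 29.6% in the WT library and 30.83% in CD36_KO. mt-Co3 took 10.2% (lanes 10.05% to 10.33%) and 14.36% (lanes 14.3% to 14.4%), and mt-Atp6 11.1% and 12.68%. mt-Co2 took 11.89% and 10.78%, mt-Cytb 8.316% and 7.531%, and mt-Nd5 7.806% and 5.664%. The shares of mt-Nd6 were 1.553% (lanes 1.531% to 1.586%) and 0.3813% (lanes 0.3708% to 0.3881%). The shares of mt-Atp8 were 1.062% (lanes 1.03% to 1.098%) and 0.2014% (lanes 0.194% to 0.208%). mt-Nd6 and mt-Atp8 were the only 2 of the 13 whose share differed by at least 2-fold, with log2 share ratios of −2.03 and −2.40. That held as labelled (−2.0 and −2.37), with joint counts and, at −1.81 and −1.85, in TPM.

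The tRNAs are 59 to 75 bases long and were counted rarely: 1383 counts over all 22 in the WT library and 796 in CD36_KO. The counts may come from mature tRNAs or from precursors that hold them. Since the strand setting of the counting is not given, they may also come from RNA antisense to the tRNAs. The 14 tRNA genes on the + strand had 215 and 75 counts together, a log2 ratio of −1.76 (−2.16 to −1.37), and none of them was measured. The 8 on the − strand had 1168 and 721 counts, a log2 ratio of −0.93 (−1.07 to −0.80). They held 84.45% and 90.58% of all tRNA counts. After scaling, 21 of the 22 tRNAs had a lower value in the CD36_KO library, mt-Tp being the exception. The interval excluded no difference for 12 of the 22 and held it for 10. With no counts in the CD36_KO library there were mt-Ti, mt-Td and mt-Tr, with 3, 2 and 7 counts in the WT library, where a count of 0 allows up to 3 (a one-sided 95% limit for counting error).

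The 6 measured tRNAs, all on the − strand, divided into 4 that were lower and 2 that were not. mt-Ts1 was counted 74, 65, 81 and 76 times in the WT lanes and 21, 25, 30 and 18 times in the CD36_KO lanes, a log2 ratio of −1.89 (−2.24 to −1.55). mt-Te was counted 45, 48, 51 and 35 times and 9, 14, 12 and 13 times, a log2 ratio of −2.14 (−2.63 to −1.67). mt-Tn and mt-Tc, which carry asparagine and cysteine, had −1.85 (−2.45 to −1.28) and −1.76 (−2.22 to −1.32). For these 4 genes the lanes of the libraries did not overlap.

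mt-Ty, the tRNA with the most counts over both libraries, was counted 55, 47, 46 and 52 times in the WT lanes and 56, 52, 54 and 61 times in the CD36_KO lanes. Its lanes overlapped and its log2 ratio was −0.08 (−0.36 to 0.20), 0.12 with total counts and −0.58 with TPM. mt-Tp was counted 44, 41, 49 and 42 times and 62, 46, 58 and 61 times, a log2 ratio of 0.13 (−0.16 to 0.42), which was −0.38 with TPM. The effective lengths of the tRNAs were 12.5 to 13.5 bases in the WT library and 26.7 to 28.3 bases in CD36_KO. TPM divides by effective length, which lowers the TPM ratios of tRNAs relative to those of their counts. mt-Tn, mt-Tc and mt-Ty lie in 1 cluster of − strand tRNAs (chrM:5089-5326), so neighbours in that cluster had unlike values. In length, the 4 lower tRNAs have 66 (mt-Tc), 69 (mt-Ts1 and mt-Te) and 71 bases (mt-Tn), and mt-Ty and mt-Tp have 67 each. The part of length in these values was not tested.

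**Figure D4:**
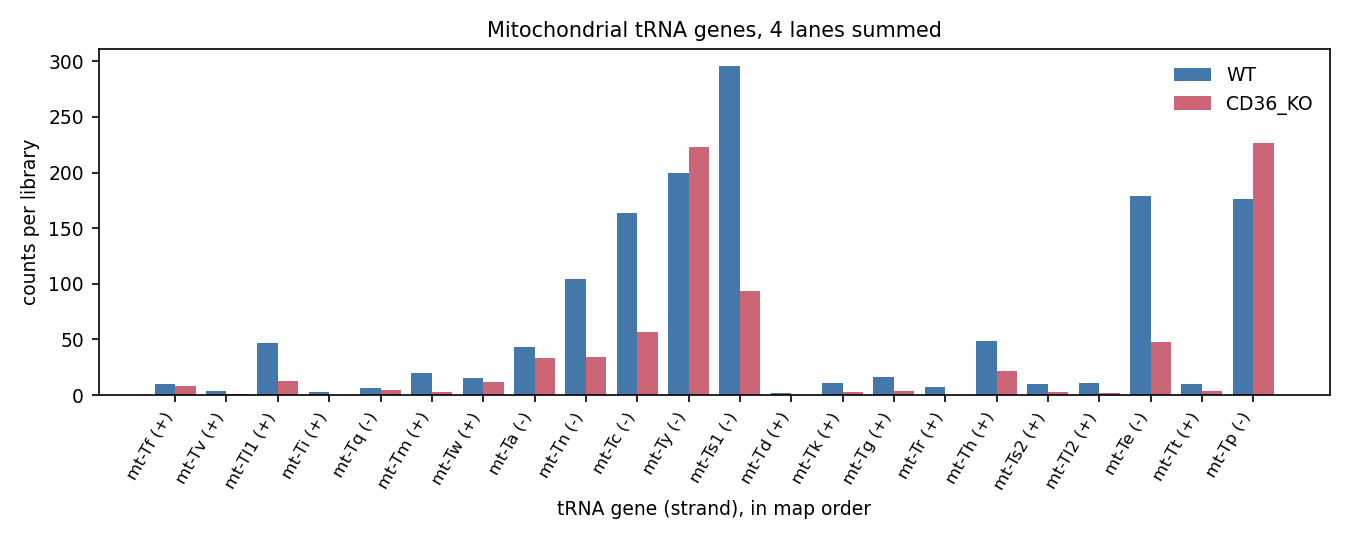
Counts per library (4 lanes summed, unscaled, linear axis from 0) of the 22 mitochondrial tRNA genes in map order, with their strand in brackets. The − strand tRNAs mt-Tn, mt-Tc, mt-Ts1 and mt-Te have fewer counts in the CD36_KO library, while mt-Ty (200 and 223) and mt-Tp (176 and 227) do not.

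The libraries also differed in fragment length and in short nuclear RNAs. The effective lengths imply a mean fragment of 159.8 to 161.1 bases in the WT lanes and 194.0 to 194.6 bases in the CD36_KO lanes. Of 69 measured nuclear genes whose longest transcript has 101 to 250 bases, 61 (88.4%) were at least 2-fold lower in the CD36_KO library, with a median log2 ratio of −3.80. They were mostly 30 snRNA genes, all of them lower, and 26 snoRNA genes, 24 of them lower. Of 137 genes with 251 to 600 bases 36.5% were lower, and of 11947 longer genes 9.99%. With TPM, 54 of the 69, 24 of the 137 and 242 of the 11947 longer genes were at least 2-fold lower. Their medians were −2.78, 0.24 and 0.37. mt-Atp8 falls in the class of 101 to 250 bases. With TMM, 2 of 4 lncRNA, 1 of 3 processed pseudogene, 1 of 2 misc_RNA and 1 of 2 scaRNA genes there were lower. The 1 miRNA gene and the 1 gene of type TEC were also lower. The tRNAs fall in the class of 1 to 100 bases, where only 3 nuclear genes were measured, all 3 lower (median −1.24). mt-Nd6, of 519 bases, falls in the class with 36.5% lower with TMM. mt-Nd4l (297 bases) and mt-Nd3 (348 bases) are shorter than mt-Nd6. They had log2 ratios of −0.13 and 0.65, the latter 0.53 with its nuclear copy. The part of fragment length in the values of these genes was not tested.

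Base composition and strand set mt-Nd6 apart from the other coding genes. It had 28.1% G and 6.0% C, against 5.9% to 16.1% G in the other 12. No source used here gives the strand setting of the counting, so reads of mt-Nd6 and of RNA antisense to it cannot be told apart.

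Against the coding genes of the mitochondrial chromosome, the nuclear genes for the same complexes had lower values. All 75 measured nuclear genes of complexes I to IV and ATP synthase lay below the median of all genes (−0.13) with TMM. The medians were −0.63 for 36 complex I genes, −0.81 for 4 complex II genes, −0.97 for 9 complex III genes, −0.72 for 11 complex IV genes and −0.73 for 15 ATP synthase genes. Relative to all genes, the medians of these 5 lists ranged from −0.49 to −0.83 with TMM and from −0.43 to −0.59 with TPM. By the 2-fold rule 2 of 36, 0 of 4, 2 of 9, 4 of 11 and 1 of 15 were lower and none higher. Of all measured genes, 10.8% were lower and 6.5% higher. The largest values were those of Ndufa5 (−1.46) and Ndufb9 (−1.21), Uqcr10 (−1.30) and Cyc1 (−1.0), Cox5b (−1.34) and Cox6a1 (−1.32) and Atp5g2 (−1.47) and Atp5o (−0.99). In complex II, which has no mitochondrially encoded subunit, Sdhc and Sdhd had −0.94 and −0.83.

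**Figure D5:**
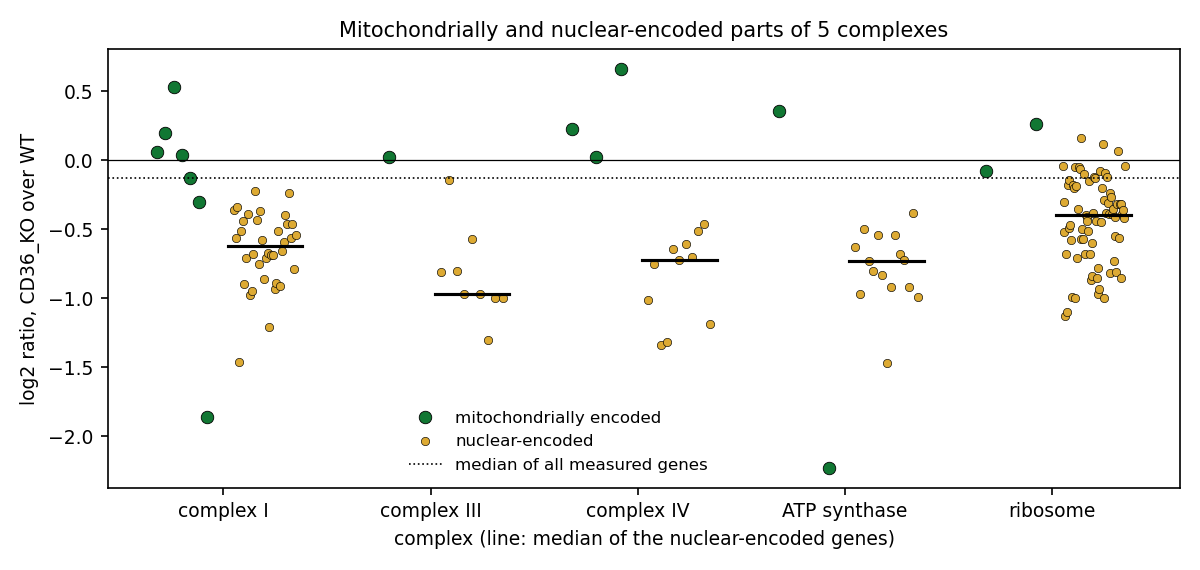
Log2 ratio of TMM-scaled CPM, CD36_KO over WT, of mitochondrially encoded genes (with nuclear copies added) and measured nuclear genes of complexes I, III and IV, ATP synthase and the mitochondrial ribosome; points are genes, spread sideways for sight only. Apart from mt-Nd6 and mt-Atp8, the mitochondrial genes lie at −0.30 or above, and the medians of the nuclear genes of the 4 enzyme complexes lie between −0.63 and −0.97.

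For the machinery that makes and matures mitochondrial RNA, counts of genes are to be read beside all measured genes (6.5% higher, 10.8% lower). Of 11 measured genes for replication and transcription of the mitochondrial chromosome, none passed the rule, and the median was 0.05. Tfam, which packages the DNA and opens its promoters, had 0.05 (−0.21 to 0.32). Polrmt, the mitochondrial RNA polymerase, had −0.33 (−0.65 to −0.02), and Twnk, the helicase, had −0.16 (−0.55 to 0.24). Polg2, the accessory subunit of the DNA polymerase, and Mgme1, a nuclease, had the largest values, 0.97 (0.60 to 1.35) and −0.80 (−1.29 to −0.31).

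None of 21 genes for RNA processing and turnover passed, where 6.5% of all measured genes were higher and 10.8% lower. The median of the 21 was −0.12. Trmt10c, a subunit of mitochondrial RNase P, had 0.01 (−0.38 to 0.41), and Lrpprc, which stabilises mitochondrial mRNAs, had −0.18 (−0.34 to −0.02). Fastk and Rexo2 had the largest differences there, −0.95 and −0.52. The FASTK protein is known to stabilise the mt-Nd6 mRNA. Fastk was counted 307 and 188 times, with an interval of −1.22 to −0.68. None of 15 genes that modify mitochondrial rRNA and tRNA passed (median 0.13), and Mettl17 and Nsun2 had the largest values, 0.53 and −0.48.

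Of 16 aminoacyl-tRNA synthetase genes only Lars2, for leucine, was lower, beside 10.8% of all measured genes, and the median was 0.03. Lars2 had 11215 and 1713 counts and a log2 ratio of −2.95 (−3.02 to −2.88). Of its counts, 97.2% in the WT library and 86.1% in CD36_KO lay on 1 transcript annotated for nonsense-mediated decay, and its main coding transcript had 267.0 and 187.7 counts (−0.74). Among 74 mitochondrial ribosomal protein genes 3 were lower, beside 10.8% of all measured genes, and the median was −0.39. Mrpl12 and Mrpl14 had −1.13 and −1.10. This list too lay below the median of all genes under each scaling (−0.26 relative to it with TMM, total counts and TPM), while both rRNAs lay above it.

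Among 6 regulators of mitochondrial biogenesis 1 was lower, beside 10.8% of all measured genes. This was Ppargc1a, the coactivator PGC-1α, with 543 and 108 counts and a log2 ratio of −2.57 (−2.88 to −2.27). Nrf1 had 0.40 (0.18 to 0.63), and the median of the list was −0.11. Of 12 genes for abundant mitochondrial proteins, often used to follow mitochondrial mass, 2 were lower, beside 10.8% of all measured genes. These were Vdac1 (−1.47) and Hspd1 (−1.26). The median of the 12 was −0.82, and all 12 lay below the median of all genes with TMM, total counts and TPM.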

How the data were processed

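The 8 samples were grouped by their labels and taken, from their titles, as 4 lanes of 1 library per genotype. The deposited estimated counts, which need not be whole, and the deposited TPM (scaled by effective length and lane total) came from kallisto, per the submitters' processing notes, which also name GRCm38.p6 and DESeq2. No source used here gives versions or the strand setting. The deposited effective length, in bases and per the file headers, gave the implied fragment length.

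Counts of 142351 transcripts were summed by gene and over lanes, rounded, and scaled with TMM (edgeR 4.0.16; factors 0.934 and 1.071). Intervals are exact Clopper-Pearson intervals. Their computation was checked on simulated counts with counting error only, which lack the wider lane spread seen for genes with nuclear copies. Genes needed a mean of 5 CPM. TPM ratios used log2(TPM + 1). Nuclear copies were found with blastn 2.17.0 (e-value 1e-10) between GENCODE M21 transcripts, and 1329 transcripts of the files had no sequence there. All 37 genes were accounted for. Every-lane values were set by rule for the rRNAs, mt-Co1, mt-Nd6, mt-Atp8, mt-Nd4l, the extreme coding genes and the most counted tRNA. Those of mt-Co3, mt-Nd3, mt-Ts1, mt-Te and mt-Tp were added after their values were seen. For each pathway list the genes with the largest differences and 7 preset genes were named, apart from 1 gene not reported here, and Lars2 transcripts were examined after seeing the data. The members and lists were chosen with earlier results of these data known. Alternatives were total counts, DESeq2 1.42.0 size factors, TMM without mitochondrial genes, TPM, other filters, each lane left out, and nuclear copies added (for single genes, their median and the 2-fold count, chosen after seeing the data). No p-value was computed, since lanes are not replicates.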

Additional observations from a re-analysis of the deposited data

Results flagged for a closer look

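Among the unscaled lane values of the shares, the named genes and the ratio of the rRNAs, 1 lane stood apart from the other 3 of its library. mt-Co1 had 24170 unscaled CPM in CD36_KO lane 3, against 23820, 23860 and 23820 in the other CD36_KO lanes. The gap to the nearest lane was 0.899 of the range of the 4 lanes, above Dixon's 95% critical value for 4 values. Of 30 sets of lanes examined this was the only one, and chance flags about 1 in 20. All 4 lanes lay above every WT lane of mt-Co1.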

How the results depend on the processing

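As a log2 ratio of shares, CD36_KO over WT, the mitochondrial share of counts was 0.37. It was also 0.37 with nuclear copies (a move beyond its counting interval only), 0.61 as a share of TPM and 0.26 with only protein-coding and mitochondrial genes in the denominator. The coding share was 0.34, with 0.36 with nuclear copies, 0.62 in TPM and 0.33 to 0.35 with each lane left out. The rRNA share was 0.38, and 0.71 in TPM. The coding median was 0.06, with 0.26 for total counts, 0.65 for TPM and 0.06 to 0.13 with each lane left out; leaving out WT lanes 1 to 4 gave 0.12, 0.13, 0.12 and 0.13. The cause was not tested. The count of genes differing by at least 2-fold was 6, but 14 with no filter on low counts and 2 (mt-Atp8 and mt-Nd6) at 20 CPM, where fewer tRNA genes were tested. It was 7 with total counts and without WT lane 1, when labelled mt-Atp6 passed the rule, and 8 in TPM (2 higher, mt-Atp6 and mt-Nd3, and 6 lower). For 8 named genes under 15 settings, 47 of 120 values moved beyond counting error. mt-Atp8 (−2.24 to −1.22) and mt-Nd6 (−1.87 to −1.19) kept their sign in all 15, as did mt-Rnr2, mt-Co1 and mt-Atp6. mt-Rnr1 and mt-Nd4l changed sign with total counts and TPM, and mt-Ty with total counts and without WT lane 1 or 4. With TPM, 1501 genes were higher and 329 lower over all genes, against 792 and 1314 with TMM. No paired analysis was possible because each genotype has 1 library and its lanes are not replicates. Depth limits the tRNAs most: 16 of 22 lay under the filter.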
